A study of Arabidopsis thaliana with 27 samples.

Results

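The *WRKY* genes of Arabidopsis were described across all samples of the series. They code for plant transcription factors named after a short conserved peptide of their DNA-binding domain. Members were taken from a list of 58 AGI codes by gene name, a rule that used no expression value, although earlier results of these data were known. Of the 58, 49 were found among the 18899 genes of the expression table. By the structure of the domain these were 10 members of group I, 3 of group IIa, 6 of IIb, 10 of IIc, 6 of IId, 6 of IIe and 8 of group III. The 9 listed members that were not in the table and are not analysed here were *WRKY9*, *WRKY12*, *WRKY14*, *WRKY35*, *WRKY43*, *TTG2*, *WRKY49*, *WRKY71* and *WRKY72*.

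Leaves of wild-type Col-0 plants, 5 weeks old, were studied in 7 groups. In 6 of them, 3 leaves per plant were pierced with 4 holes of 1 mm and each hole received 2 µl of liquid. The liquid was oral secretions (OS) of *Pieris brassicae* caterpillars (*Pb* OS), OS of *Spodoptera littoralis* caterpillars (*Sl* OS), or water (wounding, W), and discs of 1 cm around the wound were collected after 3 h or 24 h. Unwounded control leaves were collected once, 3 h after the start and no control was taken at 24 h, so that 24 h of treatment and the later sampling cannot be told apart in their comparison with control. Each group had 4 replicates, except W at 3 h with 3, and plants were treated in groups of 2 per treatment. The authors state that they left out a wounding and water sample of a single batch as an outlier. The plants were intact wild types, the liquid came from caterpillar regurgitant rather than from feeding, and the disc held all cell types of the leaf blade.

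WRKY proteins bind the W box, a short DNA element with the core TTGAC, in the promoters of defense genes, and many *WRKY* genes carry this element themselves, so that members regulate each other. Several are phosphorylated by mitogen-activated protein kinases (MAPKs) after perception of microbes or damage, and others bind VQ-motif proteins. In leaves the family is best known for salicylic acid (SA) and jasmonic acid (JA) signaling, camalexin synthesis and senescence.

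Libraries held 22478292 to 31335753 reads on genes. Values are in CPM, read counts scaled to a common library size, and 1 read stood for 0.0289 to 0.0422 CPM. Of the 49 members, 31 had a median of at least 100 reads per library, 6 had a median under 20, and 9 had 0 reads in at least 1 library. Levels are tabulated CPM on a linear scale, in which 0 reads stand at about 0.03 CPM. Changes are log2 differences with their standard error (SE) from 1 limma fit of all 27 samples. Against control a member was called at an adjusted p under 0.05 (Benjamini-Hochberg over all genes) if its log2 change was also above 1 or below -1, and between OS and W by the adjusted p alone. The 6 listed mesophyll markers, which identify the leaf, were all present. Their summed level was 17160 to 30160 CPM with *Pb* OS at 3 h, 8607 to 29330 CPM with *Sl* OS at 3 h and 42850 to 56120 CPM with W at 3 h, against 47810 to 78180 CPM in control, and 5 of 6 were called lower with *Pb* OS and 6 of 6 with *Sl* OS at 3 h. Guard cell markers summed to 56 to 98.4 CPM with *Pb* OS and 64.7 to 90.3 CPM with *Sl* OS at 3 h, against 37 to 53.7 CPM in control. Median log2 changes with *Pb* OS and *Sl* OS at 3 h were -1.74 and -1.94 for trichome, -0.8 and -0.89 for xylem and -0.11 and -0.44 for phloem markers. In whole leaf discs, fewer cells of a type and less RNA per cell cannot be told apart. *Sl* OS replicate 2 at 3 h had the lowest mesophyll sum of all libraries, and *Pb* OS replicate 2 had the highest of the 3 h OS libraries. The part of these values in the results below was not tested. Of root markers, 1 of 4 was in the table, and it reached 2.23 CPM with *Sl* OS at 24 h and at up to 0.588 CPM with *Pb* OS at 24 h, against 0.0337 to 0.0358 CPM, the value of 0 reads, in control.

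*WRKY* genes rose 3 h after treatment, and more of them with OS than with W. *Pb* OS raised 19 of 49 members against control, *Sl* OS raised 24 and W raised 9. The same call was made for 13.4%, 14.5% and 3.5% of all genes. The median log2 change of the members was 0.88 with *Pb* OS, 1.18 with *Sl* OS and 0.37 with W, whereas the median over all genes was within 0.01 of 0. No member was called lower in any of the 6 treated groups by limma, where 14.5%, 16.2% and 0.323% of all genes were called lower with *Pb* OS, *Sl* OS and W at 3 h. Without the limit on size, 2 members were lower with *Pb* OS (*WRKY16*, -0.75 ± 0.12, and *WRKY17*, -0.7 ± 0.2; adjusted p = 6e-05 and 0.0065), 1 with *Sl* OS (*WRKY16*) and 0 with W. At an unadjusted p under 0.05, 2, 2 and 0 members were lower in these 3 groups and limma voom on recovered reads called 0. For these looser counts, and for those at an unadjusted p below, no share of all genes is given, except between the 2 OS. Since all treated groups were set against the same control samples, their counts are not independent of each other.

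Of the 25 members raised in at least 1 treated group, 9 rose with W and with both OS at 3 h (*WRKY18*, *WRKY40*, *WRKY6*, *WRKY31*, *WRKY8*, *WRKY23*, *WRKY28*, *WRKY45* and *WRKY48*). Another 9 rose with both OS but were not called with W (*WRKY4*, *WRKY25*, *WRKY26*, *WRKY60*, *WRKY47*, *WRKY75*, *WRKY39*, *WRKY27* and *WRKY46*). A call was made with 1 OS only for 7 members, *WRKY29* with *Pb* OS and *WRKY36*, *WRKY61*, *WRKY57*, *WRKY21*, *WRKY22* and *WRKY69* with *Sl* OS. The other 24 members were called in no group. On the log2(CPM + 1) scale the 3 h calls of *WRKY47*, *WRKY75*, *WRKY27* and *WRKY29* with *Pb* OS, of *WRKY36*, *WRKY61*, *WRKY57*, *WRKY21* and *WRKY69* with *Sl* OS and of *WRKY31* with W were lost. When each library was left out in turn, the count for W at 3 h was 5 to 10, with 5 reached without control replicate 3. The number of members whose treated samples all lay above all control samples was 19 with *Pb* OS, 25 with *Sl* OS and 14 with W at 3 h, against 19.8%, 24.7% and 12.1% of all genes. The deposited values carry a correction for 2 batches, in which W replicate 2 of 3 h went with the replicates 3 and 4 and not with 1 and 2. With that sample in the batch the values give it, every member called against control or between OS and W changed in the same direction within both batches. The members were called on these same samples, so the shared direction is not a separate test. The first batch held 1 W sample of 3 h. Sizes could differ between the batches, as for *WRKY75* with *Pb* OS against control at 3 h, with log2 changes of 1.1 and 7.44.

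**Figure D1:**
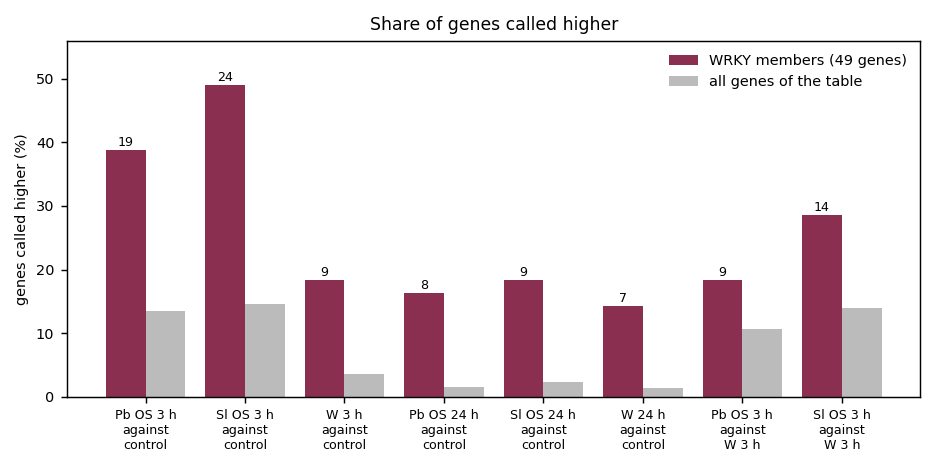
Share of genes called higher, in percent (vertical axis), among the 49 WRKY members (dark bars, with the number of members above each) and among all genes of the table (grey bars), for each comparison with control and for OS against W at 3 h. The share of members was above that of all genes in each of the 8 comparisons, with 24 of 49 members for Sl OS at 3 h.

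**Figure D2:**
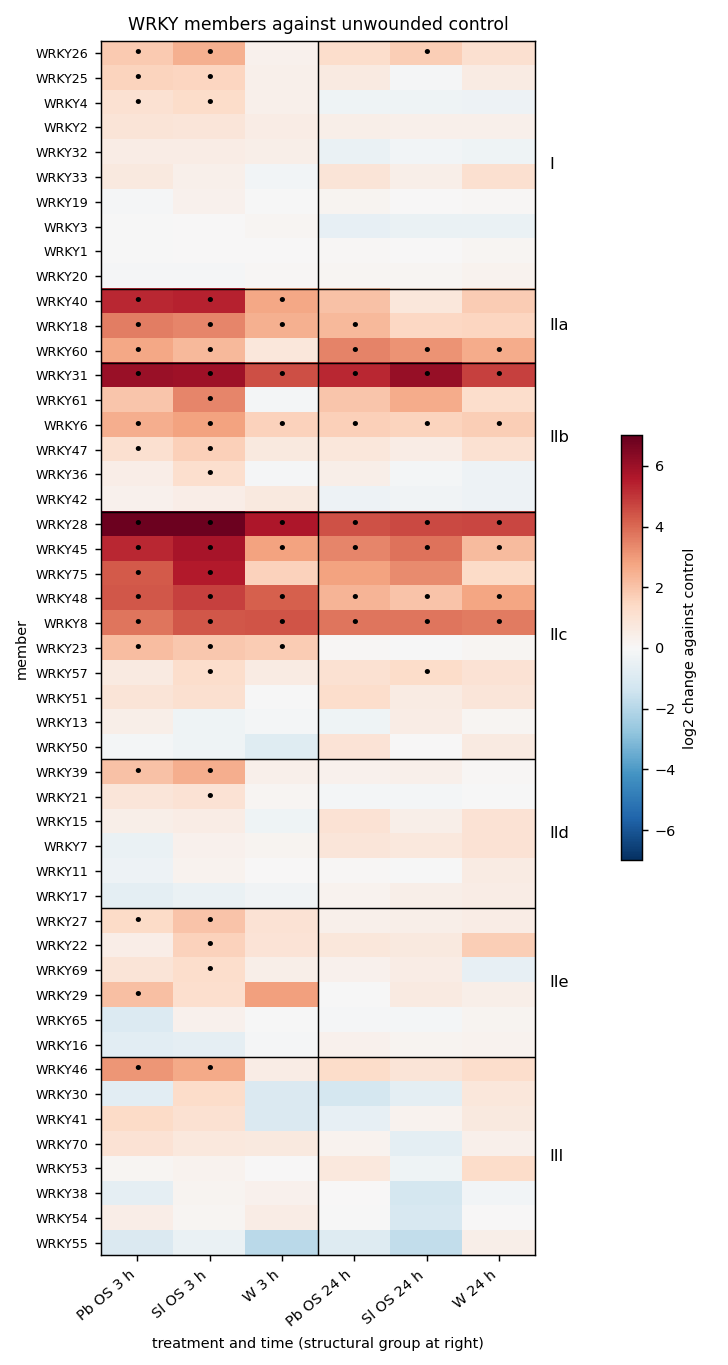
Log2 change against control (color, red for higher) of each of the 49 WRKY members (rows, by structural group, labelled at the right) in the 6 treated groups (columns), with a dot where the member was called. Dots fill all of group IIa at 3 h with OS, while 1 member of group III, WRKY46, has dots.

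All 3 genes of group IIa rose with both OS at 3 h. The proteins form homodimers and heterodimers through a leucine zipper and act redundantly as repressors of basal defense. *WRKY40* (AT1G80840) stood at 60.1, 41.1, 179 and 178 CPM with *Pb* OS and 68, 222, 91 and 78.2 CPM with *Sl* OS, at 11.5, 22.1 and 15.9 CPM with W, and at 1.41, 6.89, 1.17 and 3.16 CPM in control. No OS sample overlapped a W sample, and no W sample overlapped a control sample. The log2 change against control was 5.27 ± 0.56 with *Pb* OS (limma, adjusted p = 7.3e-07), 5.38 ± 0.56 with *Sl* OS (adjusted p = 4.2e-07) and 2.71 ± 0.61 with W (adjusted p = 0.011). The call with W was lost without control replicate 3 or without W replicate 3, with voom, and in the fit of the compared groups alone with no block.

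*WRKY18* (AT4G31800) had 130.3, 54.8, 218 and 143 CPM with *Pb* OS, 80.0, 205, 113 and 66.5 CPM with *Sl* OS and 67, 50.7 and 51.3 CPM with W at 3 h, against 10.8, 44, 3.2 and 6.66 CPM in control. Control replicate 2 was the highest control sample for each gene of this group and came close to the W samples for *WRKY18*. Its log2 changes were 3.6 ± 0.58, 3.39 ± 0.58 and 2.48 ± 0.63 with *Pb* OS, *Sl* OS and W (adjusted p = 5.3e-05, 7.8e-05 and 0.024). The call with W was lost when control replicate 3 or 4 or any of the 3 W libraries was left out. *WRKY60* (AT2G25000), which in other work is induced downstream of the other two proteins by abscisic acid, was raised in all 3 groups at 24 h. At 3 h it had 33, 12.5, 45.4 and 24.1 CPM with *Pb* OS, 12.9, 24.8, 32.9 and 12.9 CPM with *Sl* OS and 5.19, 10.2 and 7.19 CPM with W, against 3.23, 12.2, 1.89 and 3.58 CPM in control. The log2 changes were 2.68 ± 0.47 and 2.25 ± 0.47 with *Pb* OS and *Sl* OS (adjusted p = 0.00014 and 0.0006), and 0.79 ± 0.52 with W (adjusted p = 0.52). At 24 h its levels were 41.7, 30.6, 61.4 and 55.4 CPM with *Pb* OS, 31.4, 33.2, 44.2 and 37.2 CPM with *Sl* OS and 34.7, 23.8, 21.9 and 19.4 CPM with W. All 12 of these samples lay above all control samples, and the log2 changes were 3.5 ± 0.47, 3.16 ± 0.47 and 2.59 ± 0.47 (adjusted p = 0.00014, 0.00036 and 0.0041). The 24 h call with W was lost in the fit of the compared groups alone with no block, and *WRKY60* was not called between 24 h and 3 h of any treatment (adjusted p = 0.17, 0.12 and 0.056 with *Pb* OS, *Sl* OS and W).

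The 300 bases before the annotated gene start were read for all 49 members from RefSeq's TAIR10.1 assembly, by AGI locus tag, and searched on both strands for the W box core TTGAC, with its reverse complement GTCAA. It was found in 31 of the 49 windows (63.3%), against 50.4% of the windows of 27443 protein-coding genes. Among the 25 members called at 3 h, 14 windows (56%) held it, and among the 24 others 17 (70.8%). The longer form TTGACC or TTGACT was found in 42.9% of the members' windows and 32.3% of all. A match is a description of letters and not a bound site, and in 7 members the window overlaps another annotated gene. The windows of the 3 group IIa genes are shown because these genes rose together, followed by *WRKY45*, which had the most matches among the members raised in all 6 treated groups, and *WRKY33*, whose 3 matches all have the longer form and which was called in no group. Capitals mark the W box core on either strand, and each line reads 5′ to 3′ toward the gene.
WRKY40 (chr1:30383261-30383560, plus strand): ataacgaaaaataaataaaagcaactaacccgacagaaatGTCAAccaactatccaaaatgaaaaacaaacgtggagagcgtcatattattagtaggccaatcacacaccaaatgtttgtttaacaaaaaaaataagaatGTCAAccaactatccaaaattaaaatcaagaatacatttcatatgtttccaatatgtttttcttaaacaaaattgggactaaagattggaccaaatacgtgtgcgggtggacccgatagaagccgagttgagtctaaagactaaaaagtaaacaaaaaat
WRKY18 (chr4:15382477-15382776, plus strand): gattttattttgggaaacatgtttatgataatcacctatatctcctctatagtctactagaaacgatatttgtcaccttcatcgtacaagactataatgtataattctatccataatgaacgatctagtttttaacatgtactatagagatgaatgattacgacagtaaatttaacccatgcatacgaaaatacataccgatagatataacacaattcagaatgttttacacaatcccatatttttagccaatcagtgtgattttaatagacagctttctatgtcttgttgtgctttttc
WRKY60 (chr2:10629362-10629661, plus strand): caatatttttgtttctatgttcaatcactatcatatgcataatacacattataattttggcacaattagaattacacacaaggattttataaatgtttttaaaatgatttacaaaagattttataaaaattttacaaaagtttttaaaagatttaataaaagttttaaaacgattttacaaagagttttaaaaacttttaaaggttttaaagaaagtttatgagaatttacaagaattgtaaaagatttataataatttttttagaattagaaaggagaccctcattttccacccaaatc
WRKY45 (chr3:327413-327712, minus strand): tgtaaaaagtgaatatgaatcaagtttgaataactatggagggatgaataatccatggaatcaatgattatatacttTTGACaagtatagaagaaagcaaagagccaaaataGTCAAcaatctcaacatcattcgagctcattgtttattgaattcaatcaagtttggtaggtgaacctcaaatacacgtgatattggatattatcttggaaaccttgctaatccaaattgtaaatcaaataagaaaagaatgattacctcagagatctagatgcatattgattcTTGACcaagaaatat
WRKY33 (chr2:16107935-16108234, plus strand): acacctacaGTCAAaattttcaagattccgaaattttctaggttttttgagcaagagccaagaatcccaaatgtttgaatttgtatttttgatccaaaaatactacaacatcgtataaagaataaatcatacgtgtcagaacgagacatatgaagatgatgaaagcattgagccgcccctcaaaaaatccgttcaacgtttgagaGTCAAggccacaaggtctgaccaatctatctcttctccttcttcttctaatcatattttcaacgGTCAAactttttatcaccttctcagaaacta
The windows of *WRKY18* and *WRKY60* held no match and that of *WRKY40* held 2, so the 3 induced genes did not share the core within these 300 bases.

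**Figure D3:**
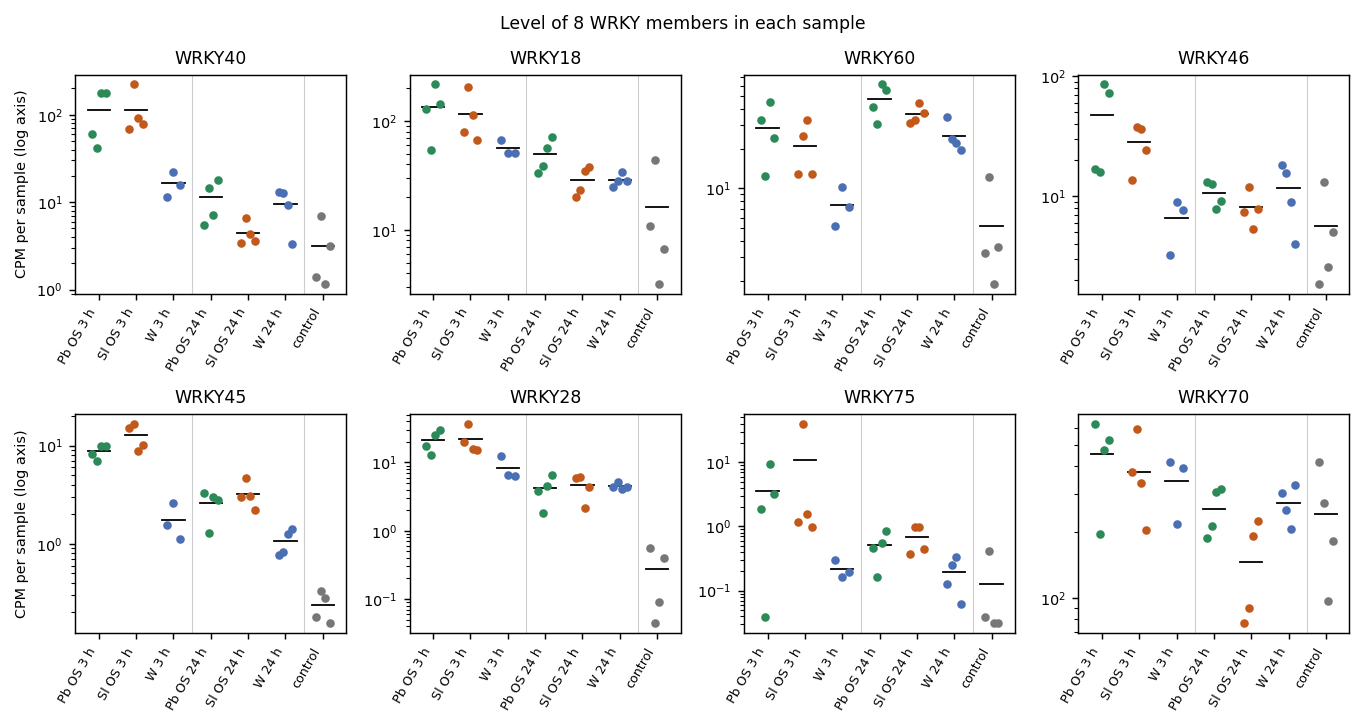
CPM of 8 WRKY members in each sample (vertical log axis, dots), by treatment and time, with the group mean as a line. All OS samples lie above all W samples at 3 h for WRKY40, WRKY60, WRKY46, WRKY45 and WRKY28. For WRKY28 the gap is narrow (12.85 against 12.42 CPM) and OS against W was not called. The mean of WRKY60 is higher at 24 h than at 3 h in each treatment, with no call between the times, and the groups of WRKY70 overlap.

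Of the 10 members of group IIc, 6 rose with *Pb* OS, 7 with *Sl* OS and 5 with W at 3 h. *WRKY28* (AT4G18170), an activator of SA biosynthesis genes, had 17.7, 12.8, 24.9 and 29.5 CPM with *Pb* OS, 19.9, 36.9, 15.6 and 15.4 CPM with *Sl* OS and 12.4, 6.45 and 6.41 CPM with W, against 0.556, 0.0446, 0.0914 and 0.398 CPM in control, where 25 reads were counted over the 4 libraries. All treated samples lay above all control samples. The log2 changes were 6.86 ± 0.56, 6.89 ± 0.56 and 5.65 ± 0.61 (adjusted p = 2.9e-08, 2e-08 and 4.8e-06). *WRKY28* remained raised at 24 h, with 3.81, 1.8, 4.46 and 6.59 CPM with *Pb* OS, 5.99, 6.16, 2.15 and 4.34 CPM with *Sl* OS and 4.38, 5.09, 4.08 and 4.36 CPM with W, and log2 changes of 4.44, 4.64 and 4.69 (adjusted p = 6e-05, 2.9e-05 and 3.3e-05).

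*WRKY45* (AT3G01970), an activator of a phosphate transporter gene and of senescence, had 8.21, 6.9, 10.0 and 9.81 CPM with *Pb* OS, 15.2, 16.7, 8.87 and 10.1 CPM with *Sl* OS and 1.54, 2.62 and 1.11 CPM with W at 3 h, against 0.179, 0.334, 0.279 and 0.156 CPM in control. The 4 groups formed 3 steps without overlap, OS above W and W above control. Its log2 changes were 5.26 ± 0.36, 5.76 ± 0.36 and 2.84 ± 0.39 (adjusted p = 2.8e-09, 7.5e-10 and 9.1e-05). At 24 h its levels were 1.27 to 3.32 CPM with *Pb* OS, 2.19 to 4.65 CPM with *Sl* OS and 0.778 to 1.43 CPM with W, all above control, and the log2 changes were 3.43, 3.79 and 2.2 (adjusted p = 5.9e-06, 1.3e-06 and 0.0012).

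*WRKY8* (AT5G46350) and *WRKY48* (AT5G49520) rose with W and with both OS, and neither was called between OS and W. *WRKY8*, known for its part in resistance to the fungus *Botrytis cinerea*, had 8.57, 1.14, 15.9 and 9.23 CPM with *Pb* OS, 8.51, 16.4, 5.97 and 9.47 CPM with *Sl* OS and 15.6, 7.05 and 7.42 CPM with W, against 0.171, 1.44, 0.33 and 0.561 CPM in control. The log2 difference from W was -0.65 ± 0.72 for *Pb* OS and -0.04 ± 0.72 for *Sl* OS at 3 h (adjusted p = 0.54 and 0.97), and *Pb* OS replicate 2 lay below every other treated sample of that time and within the range of control. *WRKY48*, a repressor of basal resistance to bacteria, had 11.4, 6.62, 26.3 and 24.5 CPM with *Pb* OS, 15.7, 32.2, 15.9 and 18.5 CPM with *Sl* OS and 15.7, 11.2 and 11.6 CPM with W, against 0.43, 0.821, 0.864 and 0.871 CPM in control. Its differences from W were 0.2 ± 0.45 and 0.6 ± 0.45 (adjusted p = 0.78 and 0.32). At 24 h *WRKY8* had 5.6 to 7.16, 4.03 to 9.51 and 4.53 to 6.76 CPM with *Pb* OS, *Sl* OS and W, and *WRKY48* had 2.15 to 4.93, 2.02 to 4.26 and 3.13 to 7.42 CPM. Both genes were also raised in all 3 groups at 24 h, *WRKY8* by 3.76, 3.75 and 3.62 and *WRKY48* by 2.38, 2.01 and 2.78 in log2 with *Pb* OS, *Sl* OS and W. With voom both genes lost the 24 h calls in all 3 groups, and *WRKY48* lost that with *Sl* OS on the log2(CPM + 1) scale as well.

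*WRKY75* (AT5G13080), which takes part in phosphate starvation responses and leaf senescence, rested on few libraries. It had 1.89, 0.0383, 9.36 and 3.2 CPM with *Pb* OS and 1.17, 39.8, 1.54 and 0.979 CPM with *Sl* OS, against 0.0383, 0.411, 0.0315 and 0.0315 CPM in control, where 3 of 4 libraries held 0 reads. *Pb* OS replicate 2 also held 0 reads, and *Sl* OS replicate 2 held 1248. The log2 changes were 4.27 ± 1.37 and 5.53 ± 1.37 (adjusted p = 0.014 and 0.0023), and the call with *Pb* OS was lost without control replicate 3, *Pb* OS replicate 3 or *Pb* OS replicate 4, on the log2(CPM + 1) scale, in the fit of the compared groups alone with no block, and with voom. The call with *Sl* OS was lost with voom (adjusted p = 0.068). *WRKY23*, known from auxin responses in roots, rose by 2.14, 1.91 and 1.79 in log2 with *Pb* OS, *Sl* OS and W at 3 h and was not called at 24 h. Its call with W was lost without control replicate 3 or W replicate 1. *WRKY57* (AT1G69310), a gene of drought tolerance and of the JA-induced senescence pathway, rose with *Sl* OS, by 1.22 ± 0.32 at 3 h (adjusted p = 0.0033) and 1.29 ± 0.32 at 24 h (adjusted p = 0.024). Its levels were 8.08, 6.11, 8.01 and 8.65 CPM at 3 h and 7.01, 11.2, 11.3 and 4.66 CPM at 24 h, against 1.88, 4.84, 2.53 and 5.04 CPM in control. The 24 h call was lost without control replicate 1 or 3 or *Sl* OS replicate 1, 2 or 3, and the 3 h call without control replicate 1. *WRKY13*, *WRKY50* and *WRKY51* were not called in any group.

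In group IIb, *WRKY31* had no read in the 4 control libraries and was read in every treated library. It held 322 reads with *Pb* OS, 537 with *Sl* OS and 67 with W at 3 h, and 157, 274 and 105 reads with *Pb* OS, *Sl* OS and W at 24 h. With a floor of 3 reads over the control group, it was at least 89.2-fold higher with *Pb* OS, at least 138-fold higher with *Sl* OS and at least 26.4-fold higher with W at 3 h than in control. At 24 h the bounds were at least 46.8-fold, 78.9-fold and 30.8-fold higher. *Sl* OS replicate 2 held 424 of its 537 reads. The calls of limma held in all 6 groups (at 3 h, adjusted p = 2.4e-07 for *Pb* OS and 2.2e-07 for *Sl* OS), but those with W at 3 h and with *Pb* OS and W at 24 h were lost on the log2(CPM + 1) scale and with voom. *WRKY61* also had 0 control reads. At 3 h it had 0, 0, 15 and 16 reads with *Pb* OS and 11, 48, 4 and 6 reads with *Sl* OS. The pooled reads of each group, 31 and 69, gave bounds of at least 8.59-fold and 17.8-fold higher than control. It was called with *Sl* OS (limma, adjusted p = 0.0037) and not with *Pb* OS, where replicates 1 and 2 held 0 reads as in control.

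*WRKY6* (AT1G62300), a regulator of senescence and a repressor of a phosphate export gene, had 21.4, 9.26, 37.3 and 30.5 CPM with *Pb* OS, 22.2, 62.9, 16 and 21.8 CPM with *Sl* OS and 11.6, 14.1 and 8.17 CPM with W at 3 h, against 3.19, 5.39, 2.42 and 4.65 CPM in control. No treated sample fell to the level of a control sample. Its log2 changes were 2.55 ± 0.39, 2.83 ± 0.39 and 1.61 ± 0.42 at 3 h (adjusted p = 3e-05, 7.8e-06 and 0.028) and 1.64, 1.55 and 1.73 with 8.72 to 15.7, 9.2 to 12.6 and 11.1 to 14.7 CPM at 24 h (adjusted p = 0.027, 0.025 and 0.02). The calls with W at 3 h and those of all 3 groups at 24 h were lost with voom, without control replicate 1 or 3, and without any of 3 libraries of the treated group (W replicates 1 to 3 at 3 h and at 24 h, *Pb* OS replicates 2 to 4 and *Sl* OS replicates 1 to 3 at 24 h). *WRKY47* rose by 1.1 with *Pb* OS, a call lost without control replicate 4 or *Pb* OS replicate 3, and by 1.67 with *Sl* OS, and *WRKY36* by 1.18 with *Sl* OS. *WRKY42*, which acts with *WRKY6* on phosphate export, was not called and had 1.25 to 3.03 CPM in the *Pb* OS samples at 3 h, against 1.17 to 3.32 CPM in control.

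Group I proteins carry 2 WRKY domains, and 3 of the 10 measured genes rose with both OS while none was called with W. *WRKY26* (AT5G07100) and *WRKY25* (AT2G30250) take part in heat tolerance. *WRKY26* had 11.6, 12.9, 12.3 and 9.98 CPM with *Pb* OS, 19.4, 25.9, 11 and 19.4 CPM with *Sl* OS and 3.1, 5.25 and 3.79 CPM with W at 3 h, against 2.38, 3.83, 2.17 and 5.63 CPM in control. The OS samples were above all W and control samples, and W and control overlapped. Its log2 changes against control were 1.84 ± 0.34 and 2.48 ± 0.34 with *Pb* OS and *Sl* OS (adjusted p = 0.00023 and 9.4e-06). *WRKY25* had 62, 43.2, 69.8 and 83.3 CPM with *Pb* OS, 58.1, 86.2, 51.4 and 52.8 CPM with *Sl* OS and 23.3, 26.6 and 28.6 CPM with W, against 23, 27.7, 15.3 and 20.5 CPM in control, and log2 changes of 1.57 ± 0.24 and 1.52 ± 0.24 with the OS (adjusted p = 3.2e-05 and 3.6e-05). *WRKY4* (AT1G13960), needed with *WRKY3* for resistance to *Botrytis*, had 44.7, 38.8, 38.9 and 47.6 CPM with *Pb* OS, 54.3, 57.9, 39.6 and 47 CPM with *Sl* OS and 33.3, 21.5 and 22.3 CPM with W, against 19.6, 23.2, 17.1 and 20.4 CPM in control. Its changes against control were 1.08 ± 0.17 and 1.3 ± 0.17 with the OS (adjusted p = 3.9e-05 and 4.5e-06), whereas *WRKY3* stood at -0.01 and 0.03.

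*WRKY33* (AT2G38470), the activator of camalexin synthesis and of resistance to *Botrytis*, was not called. It had 31.9, 32.7, 56.5 and 95.5 CPM with *Pb* OS, 33.3, 68, 35.4 and 28.4 CPM with *Sl* OS and 24.4, 24.9 and 28.3 CPM with W at 3 h, against 26.9, 32.4, 26 and 38.7 CPM in control. At 24 h it had 40.3, 65.6, 55.8 and 75.2 CPM with *Pb* OS, 35.6, 47, 35.6 and 44.1 CPM with *Sl* OS and 82.7, 85, 49.3 and 53.6 CPM with W, where all *Pb* OS and W samples lay above all control samples. The log2 change was 0.67 ± 0.3, 0.34 ± 0.3 and -0.19 ± 0.33 at 3 h (adjusted p = 0.067, 0.34 and 0.87) and 0.92 ± 0.3, 0.4 ± 0.3 and 1.1 ± 0.3 at 24 h (adjusted p = 0.14, 0.54 and 0.067). Annotated genes on the opposite strand share 272 and 26 bases with it. Among the 49 members, 11 overlap another annotated gene, and since strandedness of the counting is not given in the sources used here, reads of such pairs cannot be told apart.

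Groups IId and IIe held 5 members raised with *Sl* OS and 3 with *Pb* OS. In group IId, whose proteins bind calmodulin, *WRKY39* (AT3G04670) had 28.7, 14.9, 31.5 and 38 CPM with *Pb* OS, 29.1, 59.1, 33.8 and 34 CPM with *Sl* OS and 8.14, 9.52 and 7.36 CPM with W at 3 h, against 6.01, 6.98, 5.86 and 6.95 CPM in control. All OS samples lay above all W samples. Its log2 changes were 2.06 ± 0.25 and 2.54 ± 0.25 with the OS (adjusted p = 2.7e-06 and 1.9e-07) and 0.38 ± 0.27 with W (adjusted p = 0.57). *WRKY21* (AT2G30590) had 28, 22.7, 27.5 and 28.2 CPM with *Pb* OS, 28.4, 36.8, 25.8 and 25.9 CPM with *Sl* OS and 18.1, 14.7 and 14.7 CPM with W, against 16, 17.6, 12.9 and 11.9 CPM in control. Its change of 1.0 ± 0.17 with *Sl* OS was just over the limit of 1 (adjusted p = 6e-05), and that of 0.87 ± 0.17 with *Pb* OS just under it (adjusted p = 0.00027). The *Sl* OS call was lost without control replicate 3 or 4 or *Sl* OS replicate 2. *WRKY11*, the member of the group with the highest mean CPM and a negative regulator of basal resistance to bacteria, was not called and had 19.4 to 56.3 CPM with *Pb* OS and 38 to 68.8 CPM with *Sl* OS, against 35 to 47.4 CPM in control.

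In group IIe, *WRKY27* (AT5G52830), which affects symptoms of bacterial wilt, rose at 3 h, by 1.35 ± 0.53 under *Pb* OS and 2.01 ± 0.53 under *Sl* OS (adjusted p = 0.038 and 0.0035). Its levels were 2.52, 2.03, 7.86 and 4.33 CPM and 3.79, 4.87, 8.46 and 6.83 CPM, against 0.994, 1.09, 2.35 and 1.6 CPM in control, and the *Pb* OS call was lost without control replicate 1 or 2 or *Pb* OS replicate 3 or 4. *WRKY22* (AT4G01250) and *WRKY29* (AT4G23550) act in the MAPK pathway downstream of flagellin perception. *WRKY29* had 1.2, 1.52, 0.871 and 0.588 CPM with *Pb* OS, 0.915, 1.33, 0.0669 and 0.915 CPM with *Sl* OS and 1.51, 1.62 and 1.62 CPM with W, against 0.345, 0.238, 0.136 and 0.247 CPM in control. All *Pb* OS and W samples lay above control. The change was called with *Pb* OS (2.1 ± 0.8, adjusted p = 0.034) and not with W (2.86 ± 0.87, adjusted p = 0.067), and the call with *Pb* OS was lost without control replicate 2, 3 or 4 or *Pb* OS replicate 1, 2 or 3, on the log2(CPM + 1) scale and with voom. *WRKY22* had 3.98, 7.38, 2.03 and 6.0 CPM with *Sl* OS, against 1.26, 1.23, 1.18 and 2.1 CPM in control (log2 change 1.63 ± 0.54, adjusted p = 0.016), a call that was lost without *Sl* OS replicate 2. *WRKY69* rose by 1.24 with *Sl* OS.

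In group III, which contains the SA-linked *WRKY70* (AT3G56400) and *WRKY54*, 1 of 8 members was called against control, *WRKY46* (AT2G46400) with both OS, beside 13.4% and 14.5% of all genes called higher with *Pb* OS and *Sl* OS. This gene, which acts in SA responses and drought responses, had 16.8, 16, 85.3 and 73 CPM with *Pb* OS, 13.7, 38, 36.3 and 24.3 CPM with *Sl* OS and 3.25, 8.94 and 7.6 CPM with W at 3 h, against 1.86, 13.1, 2.56 and 5.04 CPM in control. All OS samples were above all W and control samples, and *Pb* OS replicates 3 and 4 were the highest. The log2 change was 3.09 ± 0.61 for *Pb* OS and 2.63 ± 0.61 for *Sl* OS (adjusted p = 0.00037 and 0.0013), and 0.5 ± 0.66 with W (adjusted p = 0.81). *WRKY70*, a switch between SA and JA signaling, had the highest level per base of exon in control. It had 628, 197, 478 and 531 CPM with *Pb* OS, 378, 593, 335 and 206 CPM with *Sl* OS and 418, 218 and 393 CPM with W at 3 h, against 419, 272, 96.3 and 182 CPM in control, so that the groups overlapped. Its log2 changes were 0.99 ± 0.46, 0.74 ± 0.46 and 0.68 ± 0.5 (adjusted p = 0.077, 0.18 and 0.59).

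The other 6 listed members of group III (*WRKY30*, *WRKY38*, *WRKY41*, *WRKY53*, *WRKY54* and *WRKY55*) were called in none of the 6 treated groups. Their replicates were spread widely. *WRKY38* ranged from 0.344 to 35.1 CPM within *Pb* OS at 3 h and *WRKY41* from 0.0267 to 3.98 CPM within *Sl* OS at 3 h, with *Sl* OS replicate 2 highest. The SE of the log2 change at 3 h was 1.06 and 1.13 for these genes with *Pb* OS, against 0.17 for *WRKY4*. Control libraries were spread as well. Control replicate 2 was highest for *WRKY30* (3.18 against 0.236 to 0.854 CPM), *WRKY41* (0.546 against 0.0451 to 0.0574), *WRKY53* (26 against 4.89 to 14.8) and *WRKY55* (1.13 against 0.123 to 0.452). For *WRKY38* and *WRKY54* control replicate 1 was highest. The part of this spread in the absence of calls was not tested. *WRKY53*, a regulator of senescence, stood at 0.15 ± 0.52 with *Pb* OS, 0.23 ± 0.52 with *Sl* OS and 0.0 ± 0.57 with W.

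Addition of OS to the wound was compared with W directly. At 3 h, 9 members were higher with *Pb* OS than with W and 1 was lower, and 14 were higher with *Sl* OS and 1 lower. Over all genes 10.6% were higher and 14.2% lower with *Pb* OS, and 13.9% and 18.1% with *Sl* OS. The 9 members higher with both OS were *WRKY4*, *WRKY25*, *WRKY26*, *WRKY40*, *WRKY60*, *WRKY45*, *WRKY21*, *WRKY39* and *WRKY46*. All OS samples lay above all W samples for 13 members with *Pb* OS and 20 with *Sl* OS, against 14.5% and 21% of all genes. Both comparisons share the W samples. The log2 difference for *WRKY45* was 2.42 ± 0.39 with *Pb* OS and 2.92 ± 0.39 with *Sl* OS (adjusted p = 0.00046 and 6.5e-05), and for *WRKY40* it was 2.56 ± 0.61 and 2.67 ± 0.61 (adjusted p = 0.0061 and 0.0031). *WRKY46* differed from W by 2.59 ± 0.66 and 2.12 ± 0.66, *WRKY39* by 1.68 ± 0.27 and 2.16 ± 0.27, and *WRKY26* by 1.53 ± 0.38 and 2.17 ± 0.38. *WRKY60* differed by 1.89 and 1.45, *WRKY25* by 1.21 and 1.16, *WRKY21* by 0.74 and 0.87, and *WRKY4* by 0.71 and 0.93. The other 5, higher with *Sl* OS alone, were *WRKY6*, *WRKY36*, *WRKY47*, *WRKY61* and *WRKY69*. *WRKY61* had 0 reads in the 3 W libraries, so that the pooled reads of *Sl* OS gave a bound of at least 15.1-fold higher. *Sl* OS replicate 2 held 48 of those 69 reads.

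Of the 9 members that rose with W at 3 h, 2 (*WRKY40* and *WRKY45*) were higher than W with both OS. The share of all genes raised by W that were so was not computed, so this count has no background. The counts moved with single libraries: 18 members were higher with *Pb* OS than with W without *Pb* OS replicate 2, and 8 were higher with *Sl* OS without *Sl* OS replicate 2, or 9 without W replicate 1 or W replicate 3. The *WRKY60* call with *Pb* OS was lost without W replicate 1 or 3 or *Pb* OS replicate 3, and its call with *Sl* OS without W replicate 1 or 3 or *Sl* OS replicate 2 or 3. *WRKY46* lost the call with *Sl* OS without W replicate 1 or *Sl* OS replicate 2 or 3. *WRKY4* lost the call with *Pb* OS without W replicate 2 or 3. The *Sl* OS calls of *WRKY6*, *WRKY61* and *WRKY69* were lost without *Sl* OS replicate 2 and that of *WRKY36* without W replicate 1 or 3. That of *WRKY47* was lost without W replicate 1 or 3 or *Sl* OS replicate 2 or 4. *WRKY6* also lost it without any W library or *Sl* OS replicate 1, and *WRKY69* without W replicate 2 or 3 or any *Sl* OS library.

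The member lower with both OS than with W was *WRKY16* (AT5G45050), which codes for a fusion of an immune receptor of the TIR-NB-LRR class with a WRKY domain. It had 20.6, 22.6, 17.6 and 17.4 CPM with *Pb* OS and 20.4, 21.2, 22.2 and 21.7 CPM with *Sl* OS, against 30.4, 32.8 and 30.7 CPM with W, and 31.8, 27.6, 36.4 and 35.7 CPM in control. No OS sample reached a W or control sample. The log2 difference from W was -0.68 ± 0.13 with *Pb* OS and -0.55 ± 0.13 with *Sl* OS (adjusted p = 0.0016 and 0.0045). Against control it was -0.75 ± 0.12 and -0.61 ± 0.12 (adjusted p = 6e-05 and 0.00034), under the limit of 1 in size. *RRS1*, which is not on the member list and codes for a receptor fusion of the same kind, had 21.9, 25.6, 25.1 and 21.3 CPM with *Pb* OS and 25.9, 27.4, 25.5 and 28.2 CPM with *Sl* OS, against 36.3, 32.5 and 29.1 CPM with W. Its difference from W was -0.47 ± 0.11 with *Pb* OS (adjusted p = 0.0065) and -0.28 ± 0.11 with *Sl* OS (adjusted p = 0.07). It was chosen after its values were seen.

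**Figure D4:**
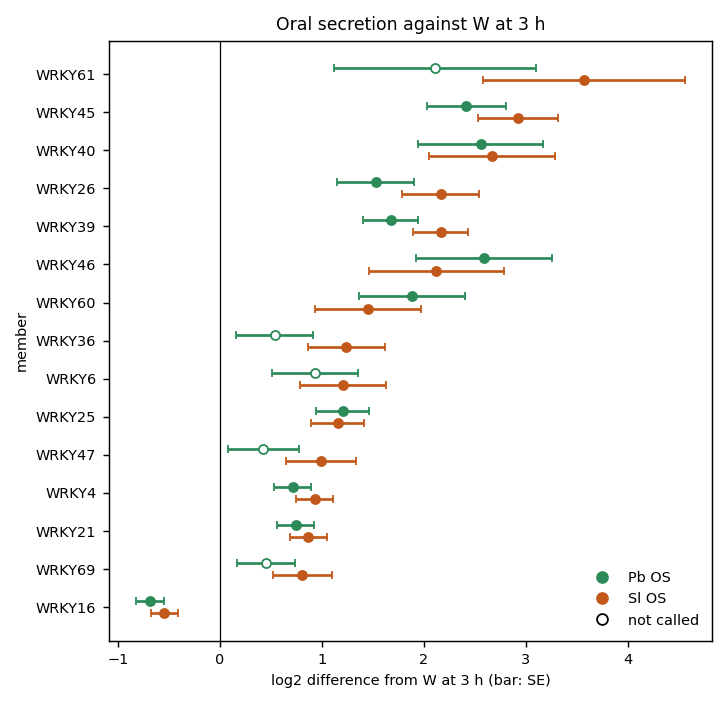
Log2 difference of Pb OS (green) and Sl OS (orange) from W at 3 h (horizontal axis, bars show 1 SE) for the 15 WRKY members called with at least 1 OS; open circles were not called. WRKY16 is the member below 0, and the differences of WRKY61 rest on 0 reads in W.

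The 2 OS were not told apart by any member. In limma, 0 of 49 members and 0 of 18899 genes (0%) differed between *Pb* OS and *Sl* OS at an adjusted p under 0.05 at 3 h or at 24 h (783 and 691 genes at an unadjusted p under 0.05), and voom called 0 members as well. At an unadjusted p under 0.05, 4 members were lower with *Pb* OS than with *Sl* OS at 3 h and 0 higher, and at 24 h 0 were lower and 3 higher. The members' log2 differences ran from -2.03 to 0.91 at 3 h and from -0.85 to 1.24 at 24 h. The difference was -0.11 ± 0.56 for *WRKY40*, -0.51 ± 0.36 for *WRKY45*, 0.47 ± 0.61 for *WRKY46* and -1.25 ± 1.37 for *WRKY75* at 3 h. A p that misses the threshold does not show that the 2 secretions act alike.

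At 24 h a smaller set of members was still above control. It counted 8 with *Pb* OS, 9 with *Sl* OS and 7 with W, against 1.58%, 2.26% and 1.39% of all genes, and 0 members were called lower (0.212%, 0.487% and 0.159% of all genes; at an unadjusted p under 0.05, 2, 1 and 1 members, and 0 by voom). *WRKY60*, *WRKY6*, *WRKY31*, *WRKY8*, *WRKY28*, *WRKY45* and *WRKY48* were called in all 3 groups, and *WRKY18* with *Pb* OS and *WRKY26* and *WRKY57* with *Sl* OS alone. The *WRKY26* change with *Sl* OS was 1.72 ± 0.34 (adjusted p = 0.0058), with 10.9, 12.8, 12.7 and 7.43 CPM. The *WRKY18* change with *Pb* OS was 2.26 ± 0.58 (adjusted p = 0.044), with 33.2, 38.9, 57.1 and 72.2 CPM, and the call was lost in 22 of the 27 fits that leave out 1 library, being kept without control replicate 2, *Pb* OS replicates 2 and 3 and *Sl* OS replicates 2 and 4 of 3 h. All treated samples lay above all control samples for 13 members with *Pb* OS, 11 with *Sl* OS and 13 with W at 24 h, against 5.82%, 6.35% and 4.92% of all genes. Of the 10 members called at 24 h, 9 had also risen with both OS at 3 h, and this share was not computed over all genes. With voom the counts were 3, 5 and 1, where all members called in W but *WRKY60* lost the call. The calls lost with voom were those of *WRKY6*, *WRKY31*, *WRKY8*, *WRKY28* and *WRKY48* for *Pb* OS, and of *WRKY6*, *WRKY8*, *WRKY48* and *WRKY57* for *Sl* OS. Without *Pb* OS replicate 2 of 3 h the count for W was 12. No member differed between an OS and W at 24 h by limma or by voom (0.037% and 0.238% of all genes higher and 0.0212% and 0.153% lower with *Pb* OS and *Sl* OS), and at an unadjusted p under 0.05, 3 members were higher with each OS and 7 were lower with *Sl* OS.

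The levels at 24 h were also compared with those at 3 h of the same treatment. Of the 49 members 10 fell and 2 rose with *Pb* OS, 17 fell and 0 rose with *Sl* OS, and 1 fell and 2 rose with W, at a log2 change over 1. Over all genes 10.3% fell and 12.8% rose with *Pb* OS, 11.4% and 14.7% with *Sl* OS, and 2.09% and 0.783% with W. *WRKY40* fell to 5.53, 14.6, 7.11 and 18.1 CPM at 24 h with *Pb* OS and to 3.42, 6.53, 4.34 and 3.55 CPM with *Sl* OS, with log2 changes of -3.22 ± 0.56 and -4.56 ± 0.56 (adjusted p = 0.00017 and 4.2e-06). *WRKY48* fell by 1.99 and 2.76, *WRKY28* by 2.42 and 2.25, and *WRKY39* by 1.76 and 2.20 on the log2 scale with *Pb* OS and *Sl* OS. *WRKY70* and *WRKY54*, paired regulators of SA responses, fell with *Sl* OS by 1.42 and 1.24 (adjusted p = 0.015 and 0.046). At 24 h with *Sl* OS *WRKY70* had 76.7, 90.1, 193 and 224 CPM, against 378, 593, 335 and 206 CPM at 3 h. *WRKY54* had 23.6, 18.7, 68.3 and 72.3 CPM at 24 h, against 98.4, 163, 82.3 and 50.9 CPM at 3 h. For both genes the fall lay mainly in replicates 1 and 2, and replicates 3 and 4 overlapped between the times.

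Members that rose between 3 h and 24 h were *WRKY16* and *WRKY7* with *Pb* OS and *WRKY33* and *WRKY15* with W. *WRKY16* had 38.1, 40.7, 41.5 and 38.5 CPM at 24 h with *Pb* OS, a change of 1.03 ± 0.12 (adjusted p = 4.2e-06). The calls with W moved with single libraries: the 2 that rose and the 1 that fell, *WRKY23*, went to between 0 and 3 and between 0 and 2 when 1 library was left out. Both counts were 0 without W replicate 2 or 3 of 3 h or W replicate 1 of 24 h. The count that rose was 0 without W replicate 2 of 24 h and 1 without W replicate 1 of 3 h, where the count that fell was 0, and 2 fell without *Pb* OS replicate 2 or *Sl* OS replicate 3 of 3 h. With *Pb* OS, *WRKY7* changed by 1.28 ± 0.31 (adjusted p = 0.0027) and the count that rose was 1 without *Pb* OS replicate 2 or replicate 4 of 3 h. With *Sl* OS, 2 members were higher at 24 h at an unadjusted p under 0.05 and 0 with voom, and 1 was called without *Sl* OS replicate 1 or 2 of 3 h.

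**Figure D5:**
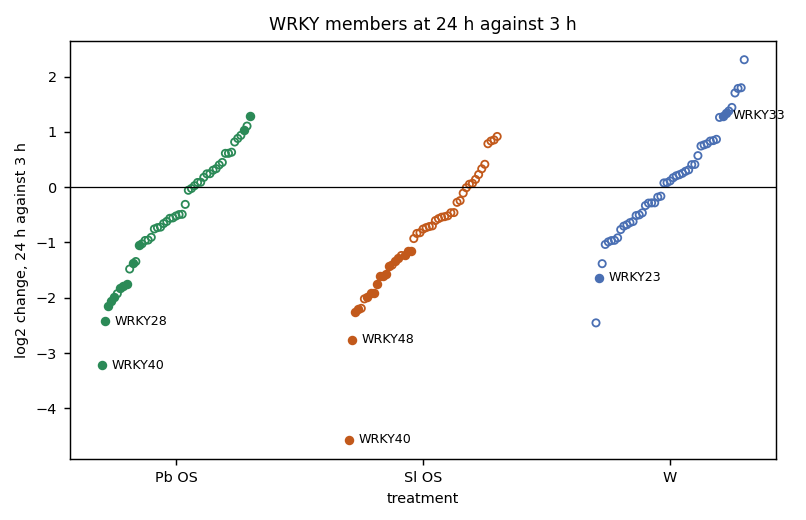
Log2 change of each of the 49 WRKY members at 24 h against 3 h (vertical axis) within Pb OS, Sl OS and W, members sorted by change within each treatment; filled points were called. With Sl OS 17 members fell, WRKY40 the most, and none was called higher.

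Whether the difference between OS and W itself changed between the times was tested as an interaction. With *Sl* OS, 8 members had a lower OS-minus-W difference at 24 h than at 3 h and 0 a higher one (5.6% and 8.39% of all genes), with 1 higher at an unadjusted p under 0.05 and 0 by voom. These were *WRKY40* (-3.65 ± 0.83, adjusted p = 0.011), *WRKY39* (-1.91 ± 0.37, adjusted p = 0.0053), *WRKY25* (-1.82 ± 0.35, adjusted p = 0.0055), *WRKY26*, *WRKY47*, *WRKY15*, *WRKY21* and *WRKY4*. With *Pb* OS, *WRKY39* (-1.47 ± 0.37, adjusted p = 0.03) and *WRKY21* (-0.87 ± 0.25, adjusted p = 0.044) had a lower difference and *WRKY16* a higher one (0.72 ± 0.18, adjusted p = 0.03), against 2.31% and 3.31% of all genes. Leaving out 1 library gave 3 to 13 members with *Sl* OS, 13 of them without *Pb* OS replicate 2 of 3 h, 3 without W replicate 3 of 3 h, 4 without *Sl* OS replicate 2 of 3 h, W replicate 1 or *Sl* OS replicate 4 of 24 h, and 5 without *Sl* OS replicate 1 or 2 of 24 h. For *Pb* OS it gave 8 lower without *Pb* OS replicate 2 of 3 h, and 0 lower without W replicate 1 or 3 or *Pb* OS replicate 3 or 4 of 3 h, or W replicate 1 or *Pb* OS replicate 2 or 4 of 24 h. It gave 1 lower without control replicate 1, W replicate 2, *Pb* OS replicate 1 or *Sl* OS replicate 1 or 4 of 3 h, or *Pb* OS replicate 1 or *Sl* OS replicate 3 of 24 h. The *WRKY16* call was lost without any W library or *Pb* OS replicate 3 or 4 of 3 h, or W replicate 1 or 3 or *Pb* OS replicate 2, 3 or 4 of 24 h.

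Levels can be compared between members per kilobase (kb) of annotated exons. In control *WRKY70* was first with 165 CPM per kb, *WRKY54* next with 71.4 and *WRKY11* after it with 23 CPM per kb, and *WRKY40* was at rank 25 with 2.38 CPM per kb. With *Sl* OS at 3 h *WRKY70* was still first with 257 CPM per kb, followed by *WRKY40* with 86.6, *WRKY54* with 68.8 and *WRKY18* with 57.3 CPM per kb. *WRKY28* stood at rank 14 with 15.1 CPM per kb with *Sl* OS, against rank 43 with 0.188 CPM per kb in control. Neighbours in these orders were not tested against each other.

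The partners and targets of the family were taken from lists built from knowledge of the pathway. Of 34 VQ-motif genes, 24 were in the table, of which 6 rose and 3 fell with *Pb* OS, 5 rose and 2 fell with *Sl* OS, and 3 rose with W at 3 h, with median log2 changes of 0.28, 0.22 and -0.06. Of all genes, 13.4% were higher and 14.5% lower with *Pb* OS, 14.5% and 16.2% with *Sl* OS, and 3.5% and 0.323% with W. *AT2G22880*, a VQ gene, rose by 5.81 ± 0.56, 6.48 ± 0.56 and 4.49 ± 0.61 in log2 with *Pb* OS, *Sl* OS and W. *VQ22*, also named *JAV1* and a repressor of JA defense, rose by 2.63 and 2.87 with the OS. *AT4G15120* rose by 4.59 and 5.07 and *VQ11* by 1.9 and 2.57. These examples were picked by the size of their change and all rose, and the VQ genes that fell are given by their counts alone.

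Of 11 genes of the MAPK cascades, all in the table, 1 rose and 1 fell with *Pb* OS, 1 rose and 2 fell with *Sl* OS, and none was called with W at 3 h. Of all genes, 13.4% and 14.5% were higher and 14.5% and 16.2% lower with *Pb* OS and *Sl* OS. *MKK9*, a kinase upstream of *MPK3* and *MPK6*, rose by 1.6 ± 0.27 and 1.93 ± 0.27 in log2 with *Pb* OS and *Sl* OS (adjusted p = 8.2e-05 and 9.7e-06). *MKK6*, a kinase of cell division, changed by -2.56 and -4.48, and *MPK3*, which phosphorylates WRKY33, by -0.95 and -1.17, the last being the call with *Sl* OS. With *Sl* OS *MKK6* had 0.0396, 0.0396, 0.114 and 0.0304 CPM, mostly near the value of 0 reads, so the size of its fall is uncertain. Of 11 known WRKY targets, 10 were in the table. With *Pb* OS 5 rose and none fell, with *Sl* OS 7 rose and 1 fell (*EDS1*, by 1.63 in log2, named after its value was seen), and with W 2 rose. Higher calls were made for 13.4%, 14.5% and 3.5% and lower calls for 14.5%, 16.2% and 0.323% of all genes with *Pb* OS, *Sl* OS and W. *ACS2*, a gene of ethylene synthesis and target of WRKY33, rose by 7.02 ± 0.74, 7.34 ± 0.74 and 4.19 ± 0.81 with *Pb* OS, *Sl* OS and W. Its control values were 0.043, 0.043, 0.028 and 0.265 CPM, mostly near the value of 0 reads, so the size of these changes is uncertain. The camalexin genes *CYP71A13* and *CYP71B15* rose by 5.62 and 3.92 with *Pb* OS and 6.83 and 4.93 with *Sl* OS. Their replicates were spread widely. *Pb* OS replicate 2 had 2.24 and 2.27 CPM of these genes, below control replicate 2 with 12.9 and 20.6 CPM. *Sl* OS replicate 2 was the highest with 595.5 and 588.9 CPM. For *CYP71B15*, *Sl* OS replicate 1 with 18 CPM also lay below control replicate 2. *TIFY5A*, a JA repressor also named *JAZ8*, rose by 4.7, 5.21 and 4.53, from control values of 0.0427, 0.25, 0.0282 and 0.0879 CPM, some of them near the value of 0 reads. Whether the family acts on these genes here was not tested.

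The table also held 7 genes with WRKY-type names that are not on the member list (*WRKY58*, *WRKY62*, *WRKY63*, *WRKY64*, *WRKY66*, *WRKY67* and *RRS1*). *WRKY67*, named here after its values were seen, held no read in control and had 2.35, 0.364, 9.5 and 3.01 CPM with *Pb* OS and 0.853, 8.86, 2.56 and 2.16 CPM with *Sl* OS at 3 h, against 0.188, 0.157 and 0.155 CPM with W. The difference from W was 3.71 ± 0.83 with *Pb* OS and 3.9 ± 0.83 with *Sl* OS (adjusted p = 0.0039 and 0.0018).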

How the data were processed

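RNA from discs of 27 leaf samples was sequenced with reads of 150 bp. Per the labels and the study's methods, the authors trimmed reads with Cutadapt 2.5, aligned them to TAIR10 with STAR 2.5.3a and counted them per gene with HTSeq 0.9.1. The deposited values are log2 CPM, made by the authors with TMM scaling and a prior count of 1, after keeping genes with 1 CPM in at least 1 sample, and then corrected for batch. The methods base this correction on the replicate number, with 4 batches, but the values carry 2: replicates 1 and 2, and 3 and 4, except that W replicate 2 of 3 h was corrected with 3 and 4. The batch means of all groups agree to within 3.3e-09 with the 3 W samples taken as numbers 1, 3 and 4, against a median difference of 0.0267 by label. The main fit keeps the labelled numbers 1, 2 and 3, and the others were alternatives. The authors' table of log2 fold changes and adjusted p-values was not used. Whole reads were recovered from the log2 CPM for 100% of genes, within 0.02 reads, for voom alone.

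Each contrast was tested with limma 3.58.1 in R 4.3.3 over all 27 samples, with group means and the replicate number (4 levels), and Benjamini-Hochberg adjustment over 18899 genes. In the batch-corrected values, deviations of same-numbered samples had mean correlations of -0.0457, -0.008, -0.0963 and -0.0588 for the 4 numbers, against 0.0167 for different numbers. Pairs within and between the times were pooled. Since the correction had already made the batch means equal, these correlations cannot show whether same-numbered samples deviated together before it. Named members were, per structural group, the 2 called members of largest change against control and the member of highest mean CPM, with every member called between both OS and W or at 24 h. Other members are given by counts, ranges or single values, and each list outside the family by at most 4 called genes of largest change. The script was tested on simulated data. Members and lists were chosen with earlier results of these data known. Alternatives were other blocks, another pseudocount, a filter, voom and leaving out each sample. The labels call replicates biological and do not name separate plants.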

Additional observations from a re-analysis of the deposited data

Results flagged for a closer look

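In 26 of 294 groups of 4 samples (8.84%), 1 sample of a member stood apart from the other 3, its gap to the nearest sample taking more of the whole range than the 95% limit of Dixon allows. Chance flags about 1 in 20 groups. The value in parentheses is that share of the range. In *Pb* OS at 3 h, replicate 3 was highest for *WRKY47* (0.932), replicate 2 was lowest for *WRKY7* (0.944) and replicate 2 was lowest for *WRKY21* (0.874). In *Sl* OS at 3 h, replicate 2 was highest for *WRKY1* (0.833), replicate 2 was highest for *WRKY31* (0.885), replicate 1 was highest for *WRKY42* (0.866) and replicate 2 was highest for *WRKY75* (0.878). In the same group, replicate 2 was highest for *WRKY15* (0.862) and replicate 3 was lowest for *WRKY29* (0.875). In *Pb* OS at 24 h, replicate 2 was lowest for *WRKY26* (0.845), replicate 1 was lowest for *WRKY55* (0.835), replicate 3 was highest for *WRKY42* (0.954) and replicate 4 was lowest for *WRKY50* (0.916). In the same group, replicate 2 was highest for *WRKY11* (0.889). In *Sl* OS at 24 h, replicate 1 was lowest for *WRKY42* (0.862), replicate 4 was lowest for *WRKY61* (0.885) and replicate 4 was highest for *WRKY51* (0.833). In W at 24 h, replicate 3 was lowest for *WRKY25* (0.859) and replicate 2 was highest for *WRKY23* (0.912). In control, replicate 2 was highest for *WRKY41* (0.904), replicate 1 was highest for *WRKY42* (0.932), replicate 1 was lowest for *WRKY48* (0.916) and replicate 2 was highest for *WRKY50* (0.847). In the same group, replicate 2 was highest for *WRKY75* (0.924), replicate 1 was highest for *WRKY7* (0.965) and replicate 4 was highest for *WRKY22* (0.874). *Sl* OS replicate 2 of 3 h stood apart for 4 members, the most of any library, and it also had the lowest summed level of mesophyll markers. What part the one has in the other was not tested.

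The difference between OS and W was not the same at 24 h and 3 h for 11 tests of the interaction (limma, adjusted p under 0.05). With *Pb* OS the change of the OS-minus-W difference, in log2, was -0.87 for *WRKY21*, -1.47 for *WRKY39* and 0.72 for *WRKY16*. With *Sl* OS it was -0.87 for *WRKY4*, -1.82 for *WRKY25*, -1.59 for *WRKY26* and -3.65 for *WRKY40*, and -1.55 for *WRKY47*, -1.45 for *WRKY15*, -0.99 for *WRKY21* and -1.91 for *WRKY39*.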

How the results depend on the processing

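Over 490 values of members, no direction reversed among those called. Calls lost and gained numbered 0 and 7 with no replicate block, 1 and 5 with the replicate block of 2 batches and trended eBayes together, 1 and 1 or 3 and 0 with W samples of 3 h renumbered 1, 3, 4 or 1, 4, 3, 14 and 5 on log2(CPM + 1), 11 and 3 with the compared groups alone and no block together, and 21 and 5 with voom and a block of 2 batches together. The filter on a mean of 1 CPM moved 0 calls among the 430 values it kept. It took *WRKY29*, *WRKY36* and *WRKY61*, each called at 3 h, out of the fit, so their calls could not be counted as lost. The cause of these moves was not tested.

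Members raised at 24 h numbered 3 with *Pb* OS, 5 with *Sl* OS and 1 with W under voom. Members lower with *Sl* OS than W at 3 h numbered 2 on log2(CPM + 1) and under voom. Members higher with *Sl* OS than W at 24 h numbered 2 with no replicate block and 1 with the replicate block of 2 batches and trended eBayes, or with the numbering 1, 3, 4. Members that fell with W by 24 h numbered 2 with no replicate block, with each of the other replicate blocks and with the compared groups alone and no block. Members that rose with *Pb* OS by 24 h numbered 1 on log2(CPM + 1). For the *Pb* OS interaction the higher count was 0 with the compared groups alone and no block, and the lower count 1 with the replicate block numbered 1, 4, 3.

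Leaving out 1 sample gave 5 to 10 members raised with W at 3 h and 6 to 12 at 24 h. It gave 7 to 18 members higher with *Pb* OS than W at 3 h, 8 to 17 with *Sl* OS, and 0 to 1 with *Sl* OS at 24 h. By 24 h, 0 to 3 rose and 0 to 2 fell with W, 1 to 3 rose and 7 to 15 fell with *Pb* OS, and 0 to 1 rose and 12 to 18 fell with *Sl* OS. The interaction gave 0 to 1 higher and 0 to 8 lower with *Pb* OS, and 0 to 1 higher and 3 to 13 lower with *Sl* OS. The 6 members with a median under 20 reads are limited by depth.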
